A study of Mus musculus with 12 samples.

Results

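The natriuretic peptide system of the embryonic heart was followed through 7 genes, chosen by name: the peptide genes *Nppa*, *Nppb* and *Nppc*, the receptor genes *Npr1*, *Npr2* and *Npr3*, and *Corin*. They are 7 of the 20368 genes with values in the series. Natriuretic peptides are hormones that were first known for lowering blood volume and pressure. Atrial natriuretic peptide (ANP, from *Nppa*) and B-type natriuretic peptide (BNP, from *Nppb*) are made by cardiomyocytes, and C-type natriuretic peptide (CNP, from *Nppc*) is made largely by endothelium and other tissues. Corin is a membrane protease of cardiomyocytes that cuts pro-ANP into its active form. ANP and BNP act through the guanylyl cyclase receptor encoded by *Npr1* and CNP through the one encoded by *Npr2*, both of which raise cyclic GMP, whereas the *Npr3* product binds all of these peptides and removes them. In the embryonic heart *Nppa* marks the working myocardium of the forming chambers, and both *Nppa* and *Nppb* are widely used as markers of the fetal and stressed myocardium.

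RNA was sequenced from hearts of CD1 mouse embryos at E11.5 and E12.5, with 3 libraries in each of 4 groups. Every embryo carried *Mesp1Cre*, a Cre recombinase made in the early mesoderm that gives rise to the heart, so cells of other origin keep their floxed allele. Controls were *Mesp1Cre*;*Hira*+/fl and mutants were *Mesp1Cre*;*Hira*-/fl. *Hira* encodes a histone chaperone that deposits the variant histone H3.3. Recombination thus leaves a control cell with a wild-type copy of *Hira* and a mutant cell with none, and every cell of a mutant also carries the null allele. Neither the labels nor the methods state whether a library is 1 heart or a pool, so the p-values measure only the spread between these libraries.

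The libraries held 11994148 to 17483982 counted reads. Library 3 of the E11.5 mutants was the shallowest and had the lowest mean correlation with the others over genes (Pearson's r = 0.966 on log2 values). *Hira* itself did not separate the genotypes as a whole gene, at 68.3 to 85.4 CPM (counts normalised to a fixed library size) in E11.5 controls and 56.6 to 74.4 CPM in mutants, and at 60.8 to 85.8 CPM in E12.5 controls and 70.9 to 80.3 CPM in mutants. Gene totals do not resolve the deleted exon, so these values do not check the labels. The heart label matched the markers: all 9 pan-cardiomyocyte markers were detected, and their summed level was 16993 to 23537 CPM in every library. From counts of Y-linked genes, 3 of 3 E11.5 control libraries were classed as male, and 1 of 3 in each of the other groups. These counts show that male tissue is present, so a pool of both sexes would also be classed as male.

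The upstream sequences of *Nppa*, *Nppb* and *Npr1* are shown because most matches to the cardiac motifs searched here were at the peptide genes, and *Npr1* was the member that differed between genotypes. The sequences are from RefSeq (GRCm38.p6), read 5′ to 3′ on the strand of the gene, and end at the base before the annotated gene start for *Nppa* (chr4:148000472-148000721) and *Npr1* (chr3:90465867-90466116, minus strand). For *Nppb* a stretch with 3 matches is shown (chr4:147985795-147985824). Positions are counted from the RefSeq start, which for *Nppb* lies inside the span of the gene in the deposited files. Capitals mark matches to any motif searched, on either strand.

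Nppa: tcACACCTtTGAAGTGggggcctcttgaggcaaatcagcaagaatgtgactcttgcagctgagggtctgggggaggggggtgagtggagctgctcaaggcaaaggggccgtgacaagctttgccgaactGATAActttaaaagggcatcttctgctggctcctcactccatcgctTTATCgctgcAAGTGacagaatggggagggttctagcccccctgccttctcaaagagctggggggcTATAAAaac
Nppb: GGAATGcagctGATAAatcagaGATAAccc
Npr1: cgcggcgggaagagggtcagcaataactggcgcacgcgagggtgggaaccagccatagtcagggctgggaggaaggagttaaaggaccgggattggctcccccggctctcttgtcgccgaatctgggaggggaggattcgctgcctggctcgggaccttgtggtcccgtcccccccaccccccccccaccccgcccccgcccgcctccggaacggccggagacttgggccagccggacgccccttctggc

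The 250 bases upstream of the RefSeq start of each gene were searched on both strands for 7 motifs. GATAA, the site of GATA factors, is in 22.6% of 32851 RefSeq windows of that length. TNAAGTG, an element bound by NKX2-5, is in 10.1% of them. Its core, AAGTG, overlaps it and is in 40.7%. AGGTGT, a T-box site, is in 11.8%. GGAATG, the site of TEAD factors, is in 12.6%. TATAAA is in 12.4%. GAGAGAGA is in 3.26%. All 7 members matched a RefSeq window. The *Nppa* window held AGGTGT at -248 to -243 and TNAAGTG at -241 to -235 from the gene start, GATAA at -121 to -117 and -75 to -71, a second AAGTG core at -65 to -61 and TATAAA at -9 to -4. The *Nppb* window held GGAATG at -105 to -100, GATAA at -94 to -90 and at -83 to -79, and TATAAA at -31 to -26. The *Nppc* window held only TATAAA and the *Npr2* window only AGGTGT. None of the 7 motifs was found in the windows of *Npr1*, *Npr3* and *Corin*, and GAGAGAGA was in none of the members. The *Npr3* window lies in chr15:11907322-11907621 and the *Corin* window in chr5:72504491-72504790. Both lie beyond the deposited ends of these minus-strand genes, 11905674 and 72504473, so they are not the bases directly before the genes as deposited. These matches describe letters in a window and say nothing of binding.

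*Nppa* and *Nppb* lie head to tail on the plus strand of chromosome 4 (GRCm38), *Nppb* at 147985788 to 147987205 and *Nppa* at 148000722 to 148002079, 13517 bases apart. The other members stand apart: *Npr2* at 43631935 to 43651244 on the same chromosome, *Npr1* on chromosome 3 (90450591 to 90465866), *Npr3* on chromosome 15 (11839896 to 11905674), *Corin* on chromosome 5 (72300025 to 72504473) and *Nppc* on chromosome 1 (86666293 to 86670573). All are protein-coding. Antisense genes overlap *Nppa*, *Npr1*, *Npr2* and *Corin* in the annotation, and whether counting used the strand is not given in the sources used here, so their reads cannot be told apart.

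The system was dominated by the ANP transcript. Over the 12 libraries, and per length as RPKM (CPM per kilobase of gene), *Nppa* averaged 1513 and ranked 17 of 17827 genes with reads, *Nppb* averaged 233 (rank 342), *Npr3* 29.0, *Corin* 13.5, *Npr2* 9.58, *Npr1* 4.84 and *Nppc* 0.271. The order was the same in each of the 4 groups. Neighbours in this order did not overlap between libraries, except *Corin* and *Npr2*, which overlapped in both mutant groups. Among the receptors the clearance receptor *Npr3* was thus the most abundant transcript and the ANP and BNP receptor *Npr1* the least.

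*Nppc* was close to absent. It had 2, 8 and 4 reads in the E11.5 controls, 2, 0 and 3 in the E11.5 mutants, 8, 5 and 6 in the E12.5 controls and 6, 4 and 4 in the E12.5 mutants. The groups overlapped, and the gene fell under the mean RPKM of 0.5 needed for a test in each comparison, so that 6 of the 7 members were tested. No difference was detectable at this depth.

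**Figure D1:**
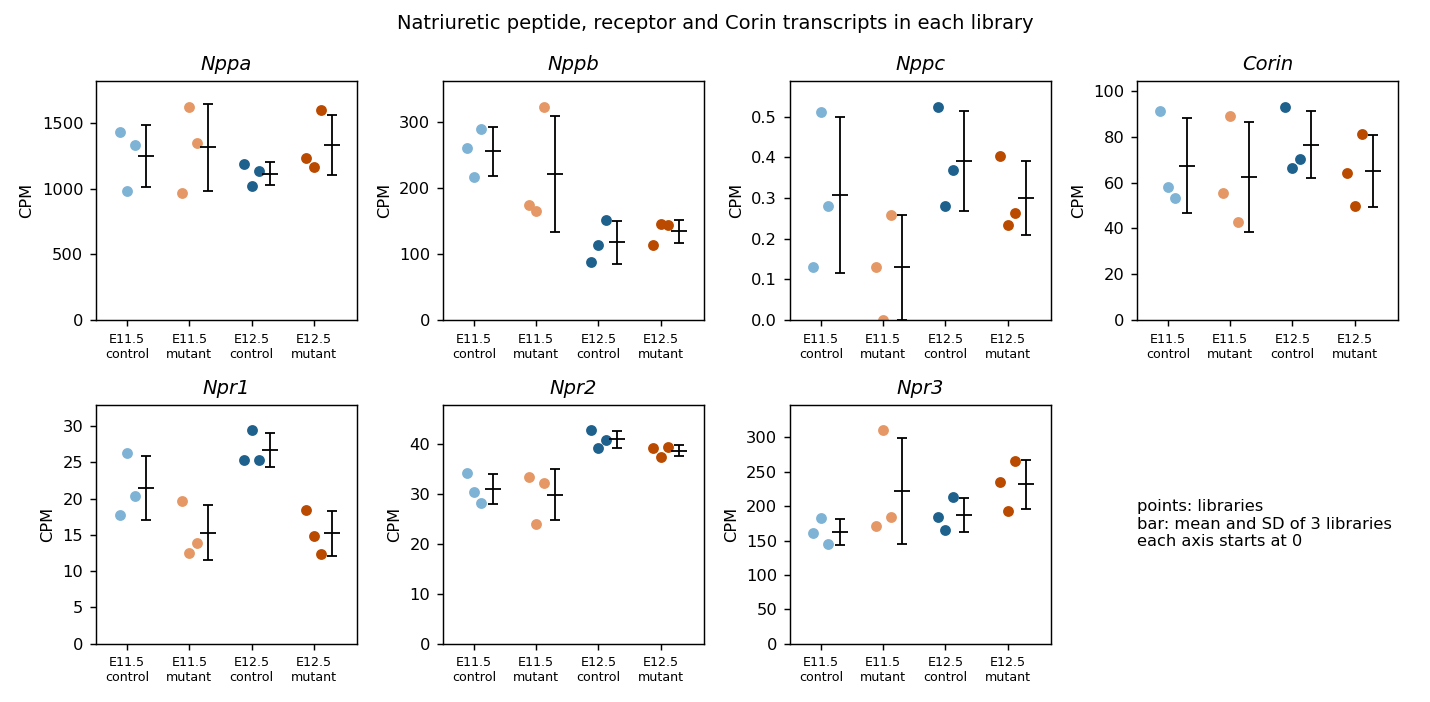
Level of each member in each library, in normalised CPM on linear axes that start at 0, with the mean and SD of 3 libraries beside the points of each group. *Npr1* was lower in all 3 E12.5 mutants than in the E12.5 controls (12.3 to 18.5 against 25.3 to 29.4 CPM), *Nppb* was lower and *Npr2* higher at E12.5 than at E11.5 in both genotypes, and the other members overlapped.

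The first comparison asked whether the system differs in hearts that lack *Hira* in the *Mesp1Cre* lineage. A gene was called changed where the p of edgeR's quasi-likelihood test, adjusted by Benjamini-Hochberg over all genes tested, did not exceed 0.05 and the change was 1.5-fold or more. At E12.5, 1 of the 6 members tested was called, *Npr1*, which was lower in mutants; 2.95% of the 12257 genes tested were called, 1.59% higher and 1.36% lower. At E11.5 none of the 6 was called and 0 had an unadjusted p under 0.05, and 0.115% of the 12197 genes tested were called, 0.0492% higher and 0.0656% lower (10.2% at the unadjusted p). DESeq2 called 0 members at E11.5 as well. The members had a median log2 fold change of -0.08 in the earlier comparison and 0.05 in the later one, and over all genes tested it was 0.00 in both.

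*Npr1*, the ANP and BNP receptor, was the member that moved. Its level was 25.3, 29.4 and 25.3 CPM in the E12.5 controls and 18.5, 14.9 and 12.3 CPM in the E12.5 mutants. All 3 mutants were below all 3 controls, which held for 1 of the 6 tested members and, in either direction, for 26.3% of genes tested. The mean was 26.7 ± 2.37 CPM in controls and 15.2 ± 3.09 CPM in mutants (SD, n = 3 each). The change was 0.57-fold, a log2 fold change of -0.81 (SE 0.14, edgeR adjusted p = 0.0119), while the two-sided exact permutation p was 0.1, the smallest that 3 libraries against 3 allow. Leaving out any 1 library gave log2 fold changes of -0.97 to -0.68, all called (adjusted p 0.0106 to 0.0447). In a fit of all 12 libraries the adjusted p was 0.0764 at the same log2 fold change of -0.81, and over all alternatives it ran from 3.9e-05 to 0.0764.

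At E11.5 *Npr1* was at 17.7, 26.3 and 20.3 CPM in controls and at 19.6, 12.4 and 13.8 CPM in mutants. A mutant library stood above a control library, so the groups overlapped, as they did for all 6 tested members at this stage (16.3% of genes tested did not overlap). The log2 fold change was -0.49 (SE 0.22, edgeR adjusted p = 0.494). The difference between the stages in the mutant effect on *Npr1* was -0.32 on the log2 scale (SE 0.28, edgeR adjusted p = 0.956). Of the 12270 genes tested for such a difference, edgeR called 0 (0%; 4.49% at an unadjusted p under 0.05), and 10 without library 3 of the E11.5 mutants, while DESeq2 called 43. None of these calls was a member. With both stages in a fit adjusted for stage, *Npr1* had a log2 fold change of -0.65 (SE 0.14, edgeR adjusted p = 0.0150) and was the only member called, against 3.22% of 12270 genes (1.85% higher, 1.37% lower and 6.85% without a fold threshold). There 2 members, *Npr1* and *Npr3*, had an unadjusted p under 0.05, against 19.4% of genes. Without library 3 of the E12.5 mutants this value was -0.57, under the fold threshold.

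*Npr3*, the clearance receptor, did not pass the test at either stage. Its level was 184, 165 and 213 CPM in E12.5 controls and 235, 194 and 266 CPM in E12.5 mutants. The lowest mutant lay within the range of the controls. The log2 fold change was 0.30 (SE 0.12, edgeR adjusted p = 0.179) at E12.5 and 0.44 (SE 0.22, adjusted p = 0.565) at E11.5, where library 2 of the mutants stood at 310 CPM against 171 and 184 in the other mutants and 145 to 183 in controls. Without that library the E11.5 value was 0.12. Adjusted for stage, the log2 fold change was 0.37 (SE 0.14, edgeR adjusted p = 0.135). At E12.5, 3 members had an unadjusted p under 0.05 (*Npr1*, *Npr3* and *Nppa*), against 21.4% of all genes tested.

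*Npr2*, the CNP receptor, was at 42.7, 39.2 and 40.8 CPM in E12.5 controls and 39.2, 37.3 and 39.3 CPM in mutants. The groups overlapped narrowly, and the log2 fold change was -0.09 (SE 0.08, edgeR adjusted p = 0.593). At E11.5 it was -0.06 (SE 0.16, adjusted p = 0.956).

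The ligand *Nppa* was at 1191, 1019 and 1133 CPM in E12.5 controls and at 1236, 1169 and 1601 CPM in mutants. The groups overlapped by 1 mutant library, and library 3 of the mutants, which had the least *Npr1*, had the most *Nppa*. The log2 fold change was 0.26 (SE 0.11, edgeR adjusted p = 0.219). At E11.5 the levels of 1437, 984 and 1335 CPM in controls and 971, 1627 and 1350 CPM in mutants interleaved, with a log2 fold change of 0.07 (SE 0.22, edgeR adjusted p = 0.957).

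*Nppb* was at 87.1, 114 and 151 CPM in E12.5 controls and at 114, 146 and 143 CPM in mutants. The mutants lay within the range of the controls, and the log2 fold change was 0.19 (SE 0.17, edgeR adjusted p = 0.539). At E11.5 the controls were at 261, 216 and 288 CPM and the mutants at 175, 166 and 323 CPM. Library 3 of the mutants was above all controls and the other mutants below them, and the log2 fold change was -0.21 (SE 0.25, edgeR adjusted p = 0.888). With sex as a covariate this value turned to 0.35.

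*Corin* spread more among libraries of a group than between groups. It was at 93.1, 66.3 and 70.4 CPM in E12.5 controls and 64.0, 49.7 and 81.4 CPM in mutants, with a log2 fold change of -0.24 (SE 0.17, edgeR adjusted p = 0.458). At E11.5 it was at 91.0, 57.9 and 53.3 CPM in controls and 55.2, 89.1 and 42.8 CPM in mutants (log2 fold change -0.11, SE 0.29, adjusted p = 0.952). At both stages the groups overlapped.

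**Figure D2:**
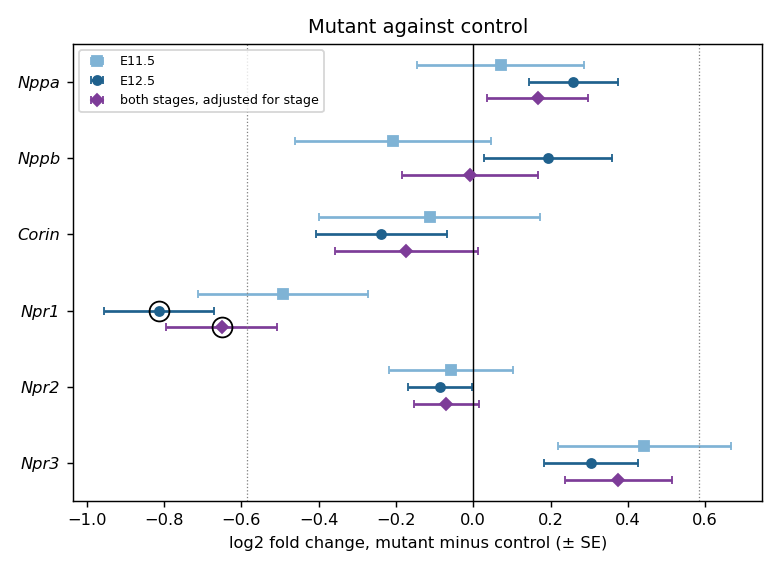
Log2 fold change of the 6 tested members, mutant minus control, with the SE of the edgeR fit, at E11.5, at E12.5 and over both stages adjusted for stage. Dotted lines mark a 1.5-fold change and circles the values that were called: *Npr1* at E12.5 (-0.81) and over both stages (-0.65), and no other member.

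In bulk tissue, fewer cells of a type and less RNA per cell cannot be told apart. Markers of other cell types moved with genotype at E12.5. Summed over 8 cushion mesenchyme markers the level was 4205 to 4724 CPM in controls and 3516 to 4085 CPM in mutants, over 8 macrophage markers it was 96.9 to 130.6 against 50.2 to 70.4 CPM, and over 7 erythroid markers 3790 to 6303 against 2088 to 2708 CPM. Of 8 cushion markers tested 1 was called (*Postn*, lower), of 8 macrophage markers 5 were called lower, and of 7 erythroid markers 5 were called lower. Endothelium and endocardium are among the cells in which natriuretic peptide receptors are known to be expressed. Over 10 of their markers the sum was 1407 to 1413 CPM in controls and 1374 to 1738 CPM in mutants. Of these 10, 8 had a positive log2 fold change and 2 a negative one, with a median of 0.10. The 1 that was called, *Cldn5*, was lower, with a mean of 5.14 CPM in controls and 2.48 CPM in mutants. Over 9 pan-cardiomyocyte markers the sum was 19789 to 20407 against 19055 to 23537 CPM, and none was called. No marker of a listed cell type was at 0 in all libraries among cushion, macrophage, erythroid, endothelial and cardiomyocyte lists. At E11.5 the endothelial sum was 1103 to 1336 CPM in controls and 1345 to 1826 CPM in mutants, and the cushion sum 3281 to 3864 against 1947 to 2906 CPM. There 9 of 10 endothelial markers had a positive log2 fold change and 8 of 8 cushion markers a negative one, and none was called. The sum over 8 epicardial markers was 558 to 861 CPM in E11.5 controls and 363 to 508 CPM in mutants, and the macrophage sum 35.2 to 96.8 against 16.4 to 20.6 CPM. At E12.5 the sum over 4 smooth muscle markers was 1481 to 2017 CPM in controls and 2118 to 2506 CPM in mutants. Over 9 ventricular markers it was 5964 to 6498 against 6560 to 7125 CPM. Such sums follow their most abundant genes: *Acta2* averaged 1304 CPM in E12.5 controls and 1733 CPM in mutants, and *Myh11* 2.18 and 2.23 CPM. Of 3 smooth muscle markers tested 3 had a positive log2 fold change, as had 7 of 9 ventricular markers, and none was called. The part of these cell types in the level of *Npr1* was not tested.

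The receptors were also compared as a ratio within each library, which does not depend on library scaling. This ratio was chosen after the values were seen. *Npr1* alone already separated the E12.5 groups, so separation of the ratio at that stage is not an independent result. Per length, *Npr3* exceeded *Npr1* by 4.27, 3.29 and 4.94 times in the E12.5 controls and by 7.46, 7.65 and 12.6 times in the E12.5 mutants. All mutants were above all controls, and the ratio was 2.18-fold higher in mutants (log2 difference 1.13, two-sided exact permutation p = 0.1, the smallest possible; 0.88 to 1.26 without any 1 library). At E11.5 the ratio was 5.34, 4.08 and 4.17 in controls and 5.11, 14.6 and 7.82 in mutants. There the groups overlapped by 1 mutant library, with a log2 difference of 0.90 (exact permutation p = 0.2; 0.49 to 1.25 without any 1 library).

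**Figure D3:**
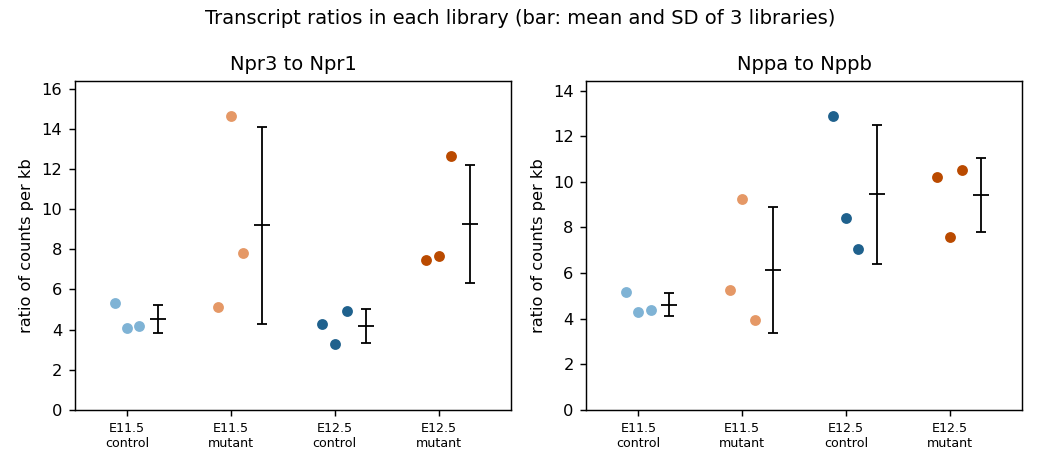
Ratio of *Npr3* to *Npr1* (left) and of *Nppa* to *Nppb* (right) in each library, in counts per kilobase, on linear axes that start at 0, with the mean and SD of 3 libraries. The E12.5 mutants sit at 7.46 to 12.6 for the receptors against 3.29 to 4.94 in the controls, and the peptide ratio is higher at E12.5 than at E11.5 in controls (7.06 to 12.9 against 4.28 to 5.18).

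The second comparison followed the system over a day of development. In controls from E11.5 to E12.5, 1 of the 6 members tested was called, *Nppb*, which fell; 5.28% of the 12252 genes tested were called, 2.85% higher and 2.43% lower. With no fold threshold, 2 members and 11.4% of genes passed, and 2 members and 32.8% of genes had an unadjusted p under 0.05. In mutants 0 of the 6 were called by edgeR and 2 had an unadjusted p under 0.05, against 0.556% and 9.27% of the 12238 genes tested, and DESeq2 called 0 as well. The members' median log2 fold change was 0.19 in controls and 0.03 in mutants, against 0.01 and -0.01 over all genes tested.

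*Nppb* fell from 261, 216 and 288 CPM in the E11.5 controls to 87.1, 114 and 151 CPM in the E12.5 controls. Every later control was below every earlier one, which held, in either direction, for 37.4% of genes tested. The fall was to 0.46-fold, a log2 fold change of -1.12 (SE 0.18, edgeR adjusted p = 0.0121; two-sided exact permutation p = 0.1, the smallest possible). In mutants the levels of 175, 166 and 323 CPM at E11.5 and 114, 146 and 143 CPM at E12.5 also did not overlap (17.4% of genes tested did not), with a log2 fold change of -0.73 (SE 0.25, edgeR adjusted p = 0.383), or -0.34 without library 3 of the E11.5 mutants. The call in controls was lost without E12.5 control 1 (-0.95, adjusted p = 0.0565) and without E12.5 control 2 (-1.10, adjusted p = 0.0575). It was also lost with sex as a covariate (-0.76, adjusted p = 0.301), where all 3 E11.5 controls and 1 of the 3 E12.5 controls were classed as male.

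Short genes as a whole moved with stage in the direction of *Nppb*. *Nppb* is 780 bases long and *Nppa* 829, whereas *Npr2*, *Npr1*, *Corin* and *Npr3* are 3660, 4065, 5033 and 6927 bases long. In controls the median log2 fold change was -0.42 for the 288 genes of over 600 and up to 800 bases, -0.31 for the 367 of over 800 and up to 1000, 0.14 for the 2277 of over 4000 and up to 6000, and 0.26 for the 1404 longer genes. In mutants it ran from -0.17 (over 600 and up to 800 bases) to 0.13 (over 6000). With this trend removed, which was tried after seeing the data, *Nppb* had a value of -0.77 (edgeR adjusted p = 0.0153) in controls and was still called, and -0.53 (adjusted p = 0.150) in mutants. The genotype comparison at E12.5 held a weaker trend, from 0.14 to -0.10 over the same lengths, and *Npr1* was still called with it removed (-0.78, adjusted p = 0.0153).

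**Figure D4:**
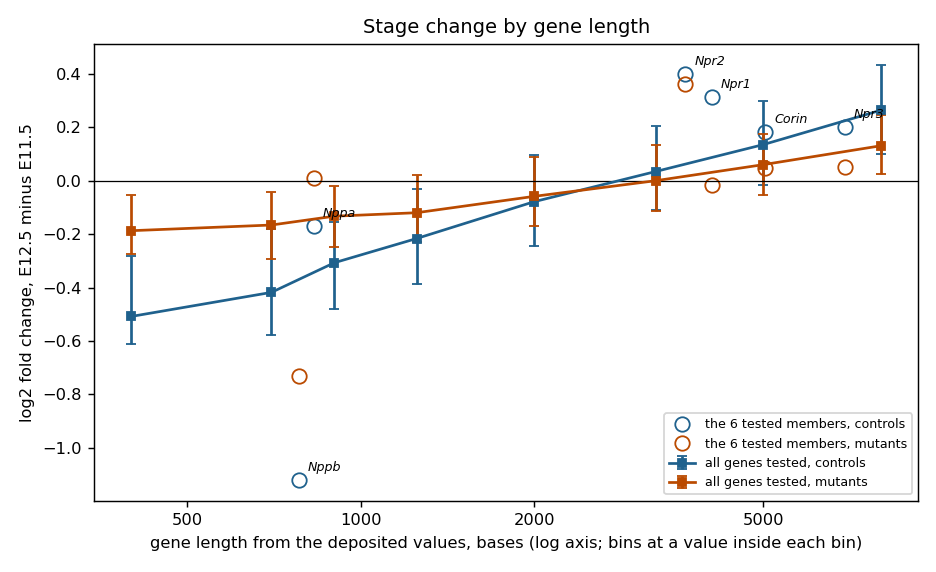
Log2 fold change from E11.5 to E12.5 against gene length in bases (log axis) in controls and mutants. Squares and bars give the median and quartiles of all genes tested in each length bin, and open circles the 6 tested members; *Nppb* at -1.12 in controls lies below the quartiles of genes of its length (-0.58 to -0.18).

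*Nppa*, the neighbour of *Nppb*, was not called. Its log2 fold change in controls was -0.17 (SE 0.14, edgeR adjusted p = 0.432), from 984 to 1437 CPM at E11.5 to 1019 to 1191 CPM at E12.5. With the length trend removed its sign turned, to 0.18. The ratio of *Nppa* to *Nppb* per length, also chosen after the values were seen, was 5.18, 4.28 and 4.36 in E11.5 controls and 12.9, 8.42 and 7.06 in E12.5 controls. These groups did not overlap, and the ratio was 1.99-fold higher at E12.5 (exact permutation p = 0.1; log2 difference 0.75 to 1.18 without any 1 library). *Nppb* alone already separated these groups. The ratio was not read with sex as a covariate, and 3 of 3 E11.5 controls and 1 of 3 E12.5 controls were classed as male. In mutants the ratio was 5.23, 9.25 and 3.93 at E11.5 and 10.2, 7.56 and 10.5 at E12.5, which overlapped (1.62-fold, exact permutation p = 0.2).

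*Npr2* was at 34.2, 30.4 and 28.2 CPM in E11.5 controls and at 42.7, 39.2 and 40.8 CPM in E12.5 controls, without overlap (37.4% of genes tested did not overlap). The log2 fold change of 0.40 (SE 0.11, edgeR adjusted p = 0.0394) was under the fold threshold. Its adjusted p ran from 0.0385 to 0.155 without any 1 library and up to 0.517 over all alternatives. In mutants *Npr2* was at 33.3, 24.0 and 32.2 CPM at E11.5 and 39.2, 37.3 and 39.3 CPM at E12.5. These groups did not overlap either (17.4% of genes tested did not), with a log2 fold change of 0.36 (SE 0.14, edgeR adjusted p = 0.484). The other members overlapped between stages in controls, with log2 fold changes of 0.31 for *Npr1* (SE 0.15, adjusted p = 0.181), 0.20 for *Npr3* (SE 0.12, adjusted p = 0.282) and 0.18 for *Corin* (SE 0.20, adjusted p = 0.558).

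**Figure D5:**
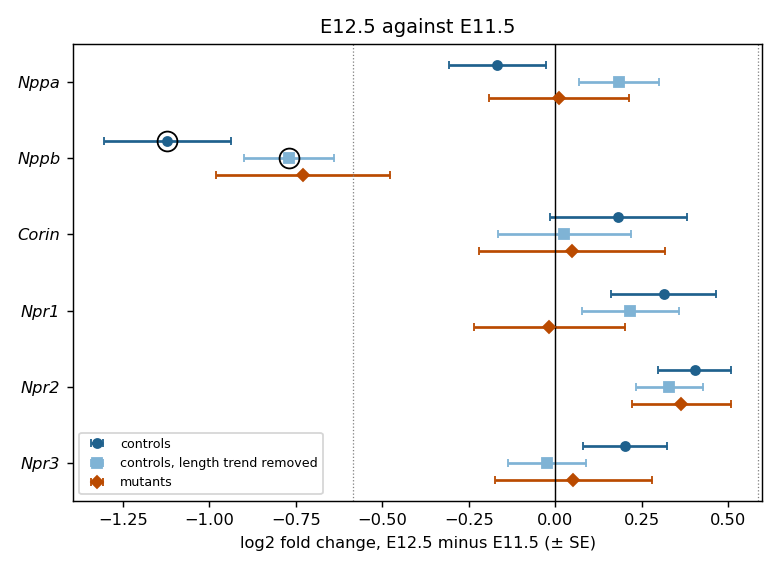
Log2 fold change of the 6 tested members from E11.5 to E12.5, with the SE of the edgeR fit, in controls, in controls with the gene length trend removed, and in mutants. Dotted lines mark a 1.5-fold change and circles the called values, *Nppb* in controls at -1.12 and at -0.77 with the trend removed.

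The genes that make, cut and degrade the peptides or carry the signal inside the cell were read from lists. These lists were chosen with earlier results of these data known. Of 6 processing and clearance genes tested at E12.5, 2 were lower in mutants and none higher, with a median log2 fold change of -0.15 against 0.00 over all genes. *Pcsk6*, a proprotein convertase known to activate corin, had a log2 fold change of -1.39 (SE 0.18, edgeR adjusted p = 0.00302), from 52.7 to 86.5 CPM in controls to 21.6 to 28.5 CPM in mutants. *Mme*, which encodes the peptide-degrading enzyme neprilysin, had -0.61 (SE 0.09, adjusted p = 0.00658). *Furin*, the convertase that cuts pro-BNP, was at 0.00 (SE 0.10, adjusted p = 0.988).

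Of the 14 genes of cyclic GMP signalling that were tested, of 18 listed, 1 was lower at E12.5 and none higher, with a median of -0.07. *Pde2a*, a phosphodiesterase that cyclic GMP stimulates, was at 20.4 to 25.4 CPM in controls and 7.58 to 15.5 CPM in mutants, a log2 fold change of -1.01 (SE 0.21, edgeR adjusted p = 0.0202). *Gucy1a3*, a subunit of the soluble guanylyl cyclase that nitric oxide activates, had -0.43 (SE 0.08, adjusted p = 0.0171), under the fold threshold. None of the genes of either list was called at E11.5, where *Pcsk6* had -1.01 (adjusted p = 0.0713) and *Pde2a* -1.17 (adjusted p = 0.122). In controls *Pde2a* rose from E11.5 to E12.5, with a log2 fold change of 0.75 (SE 0.19, edgeR adjusted p = 0.0343). In that comparison 5.28% of genes tested were called, 2.85% higher. *Pde2a* was not read there with the length trend removed or with sex as a covariate. In those fits the 647 calls over all genes fell to 303 and 19.

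None of 21 transcription factors known to act on *Nppa* and *Nppb* was called at either stage, and their median was 0.02 at the earlier stage and -0.15 at the later. *Gata4* had a log2 fold change of 0.09, *Nkx2-5* -0.15, *Tbx20* -0.17 and *Hey2* -0.17 at E12.5. Of 12 genes of the working myocardium of the chambers that were tested, 1 was higher at E12.5 (*Kcnj2*, a potassium channel gene, 0.64, adjusted p = 0.0099) and 1 lower (*Irx3*, a transcription factor gene, -0.75, adjusted p = 0.0143), with a median of -0.15. Of 10 stress and fetal programme genes tested, 2 were higher and none lower, with a median of 0.22. These were *Acta1*, the skeletal alpha-actin gene (0.85, edgeR adjusted p = 0.0387), and *Lgals3*, the galectin-3 gene (1.43, adjusted p = 0.0280). *Lgals3* was low, at 1.18 to 2.52 CPM in E12.5 controls and 3.63 to 5.17 CPM in mutants. None of these 3 lists had a call at E11.5. Of 10 atrial and 9 ventricular markers tested at E12.5 none was called, with medians of 0.31 and 0.07. The medians of these lists were not read with the trend over gene length removed. Of 8 epicardial markers 1 was higher (*Msln*, 1.03, adjusted p = 0.0140), and none of 3 smooth muscle, 4 skeletal muscle, 4 liver and 1 lung and foregut markers was called. In all, with the cell type markers included, 20 of 139 listed genes tested were called at E12.5, against 2.95% of all genes tested. Of these 20, 5 were erythroid and 5 macrophage markers. At E11.5 it was 1 of 137, against 0.115% of all genes tested: the macrophage gene *C1qb* (-2.66, edgeR adjusted p = 0.0444).

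Around the peptide genes, genes within 100 kb were read as neighbours. *Clcn6*, a chloride transporter gene that ends 2180 bases from *Nppa*, rose in controls from E11.5 to E12.5, with a log2 fold change of 0.64 (SE 0.17, edgeR adjusted p = 0.0404). In that comparison 5.28% of genes tested were called. *Mfn2* had 0.48 (SE 0.13, adjusted p = 0.0413), under the fold threshold. Neither gene was read with the length trend removed or with sex as a covariate. Over all genes the 647 calls in controls fell to 303 and 19 in those fits. *Plod1*, *2510039O18Rik* and *Agtrap* were not called, and *Draxin* was under the level needed for a test. None of the neighbours named here was called between genotypes at either stage.

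Across the 12 libraries the members did not pass a test for moving together. Of the 21 pairs, 0 had an adjusted p of at most 0.05 for Pearson's r of log2 CPM, and 4 had an unadjusted permutation p under 0.05. The strongest relation was between *Nppa* and *Npr1*, with r = -0.77 (permutation p = 0.00373, adjusted p = 0.0783) and Spearman's rho = -0.77 (permutation p = 0.00454, adjusted p = 0.0678). It was -0.58 without the 2 libraries farthest from the median of *Nppa*, with an unadjusted permutation p of 0.0819, and it was -0.78 within E11.5, -0.82 within E12.5 and -0.92 for deviations from the group means. *Npr1* and *Npr3* had r = -0.56 (adjusted p = 0.234). The permutations moved libraries freely across the 4 groups, which differ in stage and genotype. These p-values thus do not measure association among libraries of a group.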

How the data were processed

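RNA from embryonic hearts of 4 groups with 3 libraries each was sequenced. Per the submitters' processing notes, the tools were Bowtie2 and DESeq and the build mm10. The annotation and the use of strand are not given in the sources used here. The deposited values carry the name RPKM, but in each the authors' number was a whole count multiplied by the gene length and by a library factor, so it is not a density per length. The deposited comparison tables hold the authors' mean count of each group. Like an expected count, the deposited mean need not be whole, but all 77696 means came from whole counts of 3 libraries. Their fold changes and p-values were not used. No column of another sample was present (0 columns).

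Whole counts per gene and library were recovered by fitting lengths and factors to these means: 17827 genes had reads, 1597 had none, and 944 genes outside the comparison tables were not recovered. All lengths came out whole (100% within 0.01 bases), and 904 equalled the exonic length in the annotation. Totals were 11994148 to 17483982, and log factor and log total correlated (r = 0.984).

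Counts were normalised by TMM and tested with edgeR 4.0.16 (quasi-likelihood) in R 4.3.3 where RPKM, computed here from counts and lengths, averaged 0.5 or more in the fit. The call needed an adjusted p no higher than 0.05 and a change of 1.5-fold or more, and for the difference between stages the adjusted p alone. Alternatives were no filter, an RPKM filter of 5, scaling by median ratios, DESeq2 1.42.0, limma 3.58.1 on log2(RPKM + 0.5, 0.1 or 1), no fold threshold, 1 fit of all 12 libraries, the replicate number as a block, embryo sex (from 4 Y-linked genes, at least 100 counts for a male) and leaving out each library. A gene length offset and the ratios were added after seeing the data. Correlations used log2 CPM with a pseudocount of 0.5 and 100000 permutations (Python 3.11.15, numpy 2.4.6, scipy 1.17.1, pandas 2.3.3). The code was tested on simulated data.

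All members were named. Of each gene list, genes changed between genotypes were named, or otherwise up to 4 with the highest mean RPKM, and any others named were picked with their values in view. The 3 genes of mean RPKM at least 5 most correlated with each member and genes within 100 kb of *Nppa* or *Nppb* were also named, except for an item that is not reported here. Members and lists were chosen with earlier results of these data known. Replicate numbers were not used to pair the libraries in the main fits. At E11.5 the correlations of deviations were -0.03, 0.42 and 0.29 for equal numbers and -0.49 to 0.23 for unequal numbers. At E12.5 they were 0.02, 0.06 and 0.02 for equal and -0.07 to 0.04 for unequal numbers. Whether the numbers pair libraries at E11.5 is thus not settled, and with the replicate block 73 genes were called there.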

Additional observations from a re-analysis of the deposited data

How the results depend on the processing

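Of 425 alternative values for 23 fold changes of members, 408 kept direction and side of the threshold, 6 lost the call, 1 gained it and 10 changed sign; the cause was not tested. The sign changed with sex as a covariate for *Nppb* (0.35) and *Npr2* (0.066) at E11.5, and with the length trend removed for *Nppa* (0.18) and *Npr3* (-0.025) in controls over the stages. Without 1 library, the E11.5 genotype values ran from -0.11 to 0.25 for *Nppa*, -0.14 to 0.080 for *Npr2* and -0.46 to 0.17 for *Corin*. The number of members called at E12.5 was 0 in a fit of all 12 libraries. In controls over the stages it was 2 with no fold threshold, 0 with sex as a covariate and 0 to 1 without 1 library. Adjusted for stage it was 0 at a mean RPKM of at least 5, where *Npr1* was not tested, 0 with limma and a pseudocount of 1, and 0 to 1 without 1 library.

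Of the listed genes, which include the cell type markers, 1 was called at E11.5. The number was 5 without a filter, 0 at a mean RPKM of at least 5, 18 with DESeq2 and 2 with limma at a pseudocount of 0.5 or 1. It was 12 in a fit of all 12 libraries, 4 with sex as a covariate, 3 with the length trend removed and 0 to 2 without 1 library. At E12.5, where 20 were called, it was 13 at a mean RPKM of at least 5, 7 in a fit of all 12 libraries and 9 to 21 without 1 library, with 9 without control 1 and 12 without control 2.

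Libraries share only a number, and with the replicate block *Npr1* at E12.5 was at -0.82 (edgeR adjusted p = 0.00526) and the listed genes called were 6 at E11.5 and 21 at E12.5; no count of members changed. The calls over all genes ranged over the alternatives from 0 to 248 at E11.5 (14 as reported), from 0 to 43 for the difference between stages (0), from 132 to 613 at E12.5 (362), from 19 to 1406 in controls over the stages (647), from 1 to 227 in mutants (68) and from 120 to 840 adjusted for stage (395). *Nppc*, with 8 reads at most in a library, was tested only without a filter and was then not called (edgeR adjusted p = 0.821 at E11.5 and 0.802 at E12.5).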

Other observations

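The genes whose levels followed each member most closely over the 12 libraries, among 8750 genes compared (8751 for *Npr1*), are given as a description. For *Npr1* they were *St3gal4* (Pearson's r = 0.91), *Atp1b1* (0.89), which encodes a subunit of the sodium pump, and *Lrp12* (0.88). For *Npr3* they were *Slc22a23* (0.95), *Plxnd1* (0.91), which encodes an endothelial semaphorin receptor, and *Gdpd5* (0.89). For *Npr2* they were *Ncam1* (0.96), *Endov* (0.95) and *Pla2g4b* (0.94).

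For the ligands, *Nppb* was followed by *Taf11* (0.98), *1110004E09Rik* (0.98) and *Sec61b* (0.97), and *Nppa* by *Derl1* (0.83), *Cpt2* (0.82) and *Serpine2* (0.82). *Corin* was followed by *Sema3a* (0.83), *Pwp2* (0.82) and *Zw10* (0.82). Libraries of a group share stage and genotype, and these genes were picked for their likeness, so the values carry no test.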
